A study of Mus musculus with 15 samples.

Results

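A set of 34 cell division genes was followed through 15 RNA libraries of mouse hepatocytes. They were found by the Ensembl identifiers of a fixed list of mouse symbols, and all 34 were among the 56953 genes in the files. Of these, 12 serve S phase, the stretch of the cell cycle in which DNA is copied: the cyclins Ccne1 and Ccne2, the transcription factor E2f1, the helicase subunits Mcm2 to Mcm7, the clamp Pcna, and the nucleotide enzymes Rrm2 and Tyms. The other 22 serve mitosis or mark cells on the way to it: Mki67, Top2a, Ccna2, Ccnb1, Ccnb2, Cdk1, Plk1, Aurka, Aurkb, Birc5, Foxm1, Bub1, Bub1b, Cdc20, Cdc25b, Cdkn3, Ube2c, Hmmr, Kif11, Kif20a, Tpx2 and Cenpf. The rule names genes and uses no measured value, though the list was drawn up with earlier results of these data known.

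Cells enter S phase when cyclin E and its kinase relieve the retinoblastoma proteins of their hold on E2F factors, which then switch on the genes for DNA replication. Genes for mitosis are switched on later by complexes that include B-MYB and FOXM1, and their products condense the chromosomes, build the spindle and, once the chromosomes are attached, destroy cyclin B. Adult hepatocytes rarely divide, can re-enter the cycle after injury, and often stop after S phase or before the cell splits, which leaves many of them polyploid. The genes of S phase and of mitosis can therefore be read as separate stages.

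Hepatocytes came from wild-type (WT) mice and from transgenic ΔEGFR mice, each given mineral oil or carbon tetrachloride (CCl4), and the title of the series names EGFR and the fibrotic liver. The groups held 4 libraries for WT with mineral oil, 3 for WT with CCl4, 4 for ΔEGFR with mineral oil and 4 for ΔEGFR with CCl4. They are written here as WT oil, WT CCl4, ΔEGFR oil and ΔEGFR CCl4, with a library number that is only a name. CCl4 is a toxin that hepatocytes activate and that scars the liver on repeated dosing, and mineral oil is its carrier. A line of the name ΔEGFR is known from earlier work as one that expresses a truncated epidermal growth factor receptor without kinase activity in hepatocytes. The labels used here give neither the part of the receptor nor the promoter that drives it, and no age, sex, dose or duration. They do not say whether each library was a separate animal, so the p-values measure only the spread between these libraries.

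All 10 hepatocyte markers, albumin among them, were detected in every library, with a summed level of 49560 to 167400 CPM (counts of a gene scaled to a fixed library total, after adjustment for library composition). Markers of other cells were present too: the 15 macrophage markers summed to 45.7 to 2379 CPM in the 8 mineral oil libraries and 2254 to 5944 CPM in the 7 CCl4 libraries. WT oil 1 stood apart from the other mineral oil libraries with the highest sums for neutrophil markers (2003 CPM), T and NK cell markers (187 CPM) and endothelial markers (860 CPM). Total counts were 51732147 to 61888332 in 6 libraries and 96174050 to 155388787 in 9, and all 4 ΔEGFR oil libraries were in the deeper range. In RNA from whole preparations, more cycling cells and more RNA per cell cannot be told apart, and neither can hepatocytes and other cells as the source of a cycle gene.

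Promoter stretches of 4 genes are shown first, because S phase and mitosis genes are known to be read through different DNA words and the 2 kinds can be seen side by side. Sequences were those of RefSeq on GRCm38.p6, covering 250 bases before to 50 bases after the start of transcription, and 27 of the 34 genes matched. All 4 genes lie on the minus strand, the sequence is written 5′ to 3′ along the gene, and positions are counted from the start with +1 as the first transcribed base. In Mcm3 (chr1:20820264-20820293, positions 20 to 49) and Mcm6 (chr1:128359706-128359829, positions -124 to -1) the capitals mark E2F words, and in Cdk1 (chr10:69352913-69352998, positions -86 to -1) and Aurka (chr2:172370533-172370562, positions 9 to 38) they mark words of the cell cycle homology region (CHR), the element bound by the complexes that switch on mitosis genes.
Mcm3: GCGGGAAaacttgggaagttTTGGCGCCAA
Mcm6: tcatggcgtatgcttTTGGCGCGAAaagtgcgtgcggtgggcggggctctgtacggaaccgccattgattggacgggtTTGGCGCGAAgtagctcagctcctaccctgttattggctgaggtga
Cdk1: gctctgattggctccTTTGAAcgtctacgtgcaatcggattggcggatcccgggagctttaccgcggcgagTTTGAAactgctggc
Aurka: gactcctattttaaaaggagaaccTTTGAA

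The E2F words searched on both strands were TTCCCGC, its variant TTGGCGC, the further variant TTCGCGC and last the variant TTGCCGC, and overlapping matches were joined into 1 stretch. Among the 10 S phase genes with a promoter, 5 (50%) held an E2F word, namely Mcm3, Mcm5, Mcm6, Mcm7 and Rrm2, against 23.5% of the 17 mitosis genes with a promoter and 10.9% of all 27025 genes in the table. The CHR words TTTGAA and TTCGAA, on both strands, were found in 15 of the 17 mitosis genes (88.2%), in 2 of the 10 S phase genes (Mcm2 and Mcm7) and in 21.7% of all genes. A CCAAT word on either strand, the site of the factor NF-Y, was held by 16 of the 17 mitosis genes, 7 of the 10 S phase genes and 41.1% of all genes. Cdk1, Hmmr, Mki67 and Ccnb1 were the mitosis genes that also held an E2F word. A match describes the letters and is not evidence of binding.

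The S phase genes had higher group medians with CCl4 than with mineral oil in both genotypes. The median log2 CPM over the 12 genes was 3.45, 2.15, 1.82 and 3.23 in WT oil 1 to 4 and 3.92, 4.37 and 4.19 in WT CCl4 1 to 3, so the WT groups did not overlap. It was 3.78, 3.55, 3.74 and 2.69 in ΔEGFR oil 1 to 4 and 3.54, 4.82, 4.58 and 4.78 in ΔEGFR CCl4 1 to 4, where ΔEGFR CCl4 1 lay among the mineral oil libraries. All 12 genes had a log2 fold change above 0 in both genotypes, with a median of 1.0 in WT and 0.86 in ΔEGFR, beside medians of -0.03 and -0.02 over all 17975 genes tested.

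**Figure D1:**
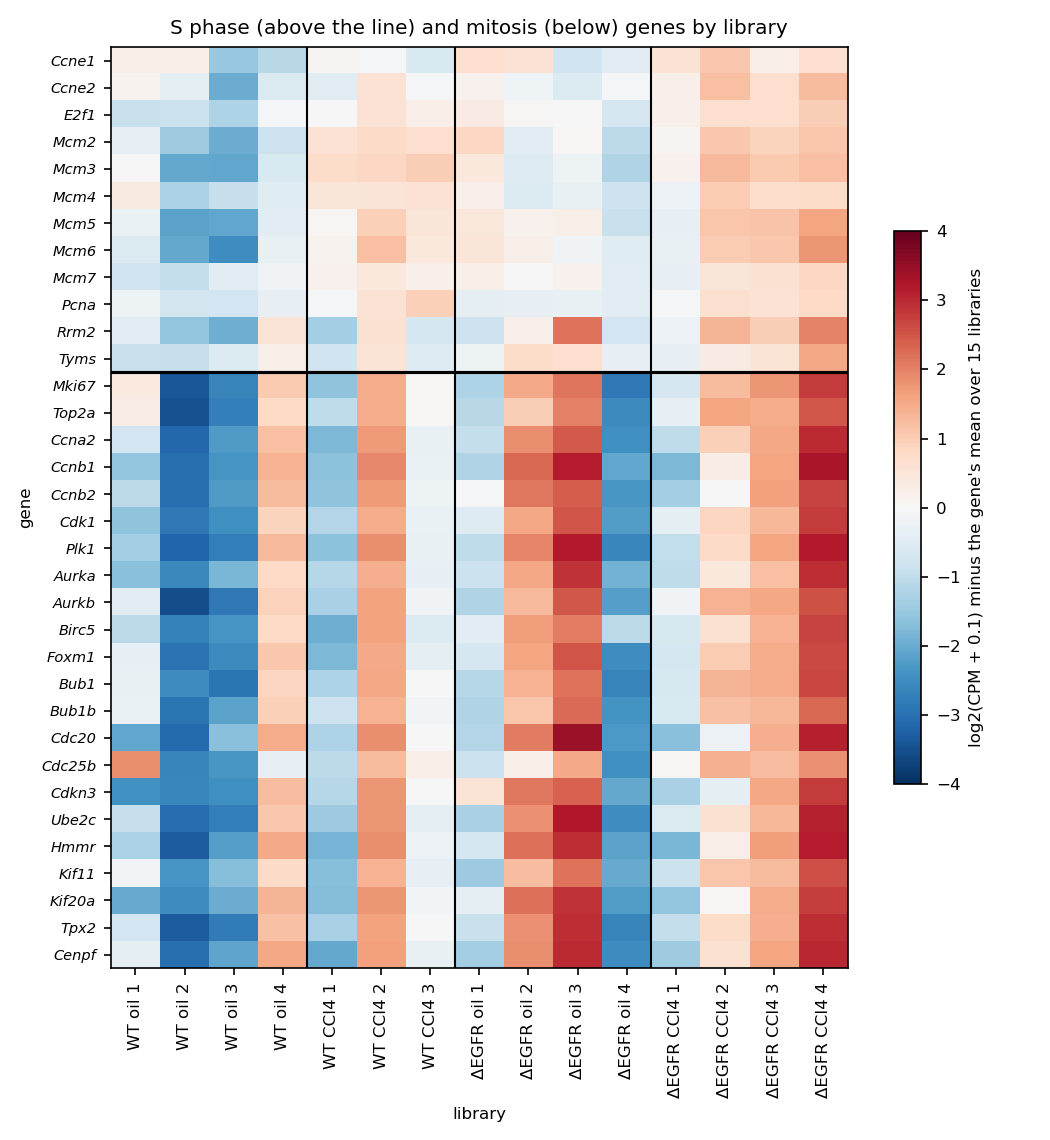
Heat map of the 34 genes (rows, S phase above the line) in the 15 libraries (columns). Colour is log2(CPM + 0.1) minus the mean of the gene over the libraries. The S phase genes are bluest in WT oil 2 and 3, whereas the mitosis genes turn dark red or dark blue by library within each group, with WT oil 2 and ΔEGFR oil 4 among the lowest and ΔEGFR oil 3 and ΔEGFR CCl4 4 among the highest.

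With edgeR's quasi-likelihood test and Benjamini-Hochberg adjustment over all genes, 4 of the 12 S phase genes (Pcna, Mcm2, Mcm3 and E2f1) rose with CCl4 in WT at an adjusted p under 0.05, and none fell. Over all genes tested 5.31% rose and 7.2% fell in that comparison (955 and 1295 genes, against 2326 and 515 without scaling factors and 2874 and 348 with limma on log2(TPM + 1)). A further 4 of the 12 were higher at an unadjusted p under 0.05, which 12.7% of all genes were. In 8 of the 12, every WT CCl4 library was above every WT oil library, which held for 12.1% of all genes. In ΔEGFR 1 of the 12 (Pcna) rose and none fell, where 1.77% of all genes rose and 2.38% fell, and a further 4 were higher at an unadjusted p under 0.05, which 11.6% of all genes were. In 2 of the 12, Pcna and Ccne2, the ΔEGFR groups did not overlap, which held upward for 12.3% of all genes.

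The genes that start S phase moved unequally. E2f1, the transcription factor that activates the replication genes, measured 4.98, 5.09, 3.95 and 8.90 CPM in WT oil 1 to 4 and 9.44, 14.0 and 11.4 CPM in WT CCl4 1 to 3. Every WT CCl4 library exceeded every WT oil library. It rose 2.03-fold in WT (log2 fold change 1.02 ± 0.29 SE, edgeR adjusted p = 0.0387). In ΔEGFR it measured 11.7, 9.65, 9.51 and 5.80 CPM with mineral oil and 10.8, 14.96, 14.9 and 18.7 CPM with CCl4. The ΔEGFR groups overlapped and the difference did not pass the test (0.69 ± 0.27, edgeR adjusted p = 0.146).

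Ccne1, a cyclin E that drives the kinase CDK2 at the entry to S phase, showed no such step. It measured 4.08, 4.13, 1.14 and 1.53 CPM in WT oil 1 to 4, 3.75, 3.24 and 2.23 CPM in WT CCl4 1 to 3, 5.53, 5.22, 1.95 and 2.56 CPM in ΔEGFR oil 1 to 4 and 5.18, 7.41, 4.19 and 5.50 CPM in ΔEGFR CCl4 1 to 4. The mineral oil libraries of both genotypes split into a high and a low pair, and the CCl4 libraries lay within or above that span. The log2 fold change with CCl4 was 0.17 ± 0.48 in WT (edgeR adjusted p = 0.840) and 0.55 ± 0.45 in ΔEGFR (edgeR adjusted p = 0.468). Ccne2, the second cyclin E, ranged from 0.379 to 4.48 CPM over all libraries. Its ΔEGFR CCl4 libraries (2.07 to 4.48 CPM) were just above its ΔEGFR oil libraries (1.19 to 2.03 CPM), and the log2 fold change of 1.07 ± 0.44 did not pass the test.

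The Mcm2 to Mcm7 proteins form the ring that is loaded on DNA at replication origins and unwinds it in S phase. Mcm2 measured 10.2, 4.75, 3.21 and 7.2 CPM in WT oil 1 to 4 and 19.3, 21.9 and 20.9 CPM in WT CCl4 1 to 3. The WT CCl4 libraries lay close together and well above all WT oil libraries. Mcm2 rose 3.25-fold in WT (log2 fold change 1.70 ± 0.43, edgeR adjusted p = 0.0236). In ΔEGFR it measured 23.0, 9.56, 13.3 and 6.20 CPM with mineral oil and 14.1, 27.6, 23.9 and 28.2 CPM with CCl4. ΔEGFR oil 1 lay above ΔEGFR CCl4 1 and below the other 3 CCl4 libraries, and the difference did not pass the test (0.85 ± 0.40, edgeR adjusted p = 0.207).

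Mcm3 was also called in WT. It measured 11.7, 2.74, 2.65 and 7.67 CPM in WT oil 1 to 4 and 19.2, 20.9 and 23.0 CPM in WT CCl4 1 to 3, again with no overlap. It rose 3.39-fold in WT (log2 fold change 1.76 ± 0.50, edgeR adjusted p = 0.0366). In ΔEGFR the values were 15.5, 8.13, 10.2 and 4.98 CPM with mineral oil and 13.0, 28.7, 24.0 and 26.9 CPM with CCl4. ΔEGFR CCl4 1 lay below ΔEGFR oil 1, and the log2 fold change of 1.25 ± 0.47 did not pass the test (edgeR adjusted p = 0.128).

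Mcm5 measured 12.5, 3.34, 3.47 and 11.2 CPM in WT oil 1 to 4, 15.6, 29.2 and 21.4 CPM in WT CCl4 1 to 3, 20.6, 17.1, 17.9 and 8.19 CPM in ΔEGFR oil 1 to 4, and 11.9, 32.6, 33.2 and 45.1 CPM in ΔEGFR CCl4 1 to 4. Its WT groups did not overlap, yet the log2 fold change of 1.53 ± 0.53 missed the threshold (edgeR adjusted p = 0.0736). In ΔEGFR it was 0.94 ± 0.49 (edgeR adjusted p = 0.251). Mcm4, Mcm6 and Mcm7 likewise had no overlap between the WT groups and missed the threshold. Their log2 fold changes in WT were 0.99 ± 0.37 for Mcm4, 1.73 ± 0.54 for Mcm6 and 0.82 ± 0.26 for Mcm7, with edgeR adjusted p of 0.1, 0.0523 and 0.0527. All 6 Mcm genes of the list were thus higher in each WT CCl4 library than in any WT oil library. In ΔEGFR the groups overlapped for all 6, since ΔEGFR CCl4 1 was low in each, and the log2 fold changes ran from 0.45 to 1.25.

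Pcna, the ring that holds DNA polymerase on its template, was the gene that rose in both genotypes. It measured 30.8, 21.1, 20.9 and 27.9 CPM in WT oil 1 to 4 and 33.4, 52.9 and 68.6 CPM in WT CCl4 1 to 3. It rose 2.05-fold in WT (log2 fold change 1.04 ± 0.24, edgeR adjusted p = 0.0156), with WT CCl4 1 only just above WT oil 1. In ΔEGFR it measured 27.4, 28.2, 28.6 and 26.5 CPM with mineral oil and 34.3, 55.6, 52.6 and 60.9 CPM with CCl4. The ΔEGFR oil libraries were nearly level and all CCl4 libraries were above them. Pcna rose 1.84-fold there (0.88 ± 0.22, edgeR adjusted p = 0.0436).

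Rrm2, a subunit of the reductase that makes deoxynucleotides, and Tyms, which makes thymidylate, did not follow the Mcm genes. Rrm2 measured 9.71, 4.44, 3.41 and 19.0 CPM in WT oil 1 to 4 and 5.14, 20.5 and 8.42 CPM in WT CCl4 1 to 3. In ΔEGFR it was 7.56, 15.4, 61.2 and 7.79 CPM with mineral oil and 11.4, 34.3, 26.5 and 52.8 CPM with CCl4. Its highest value of all libraries was in ΔEGFR oil 3. Tyms ranged from 4.37 to 9.84 CPM in WT oil, from 4.77 to 12.4 CPM in WT CCl4, from 6.69 to 14.1 CPM in ΔEGFR oil and from 6.66 to 24.8 CPM in ΔEGFR CCl4. Both genes overlapped between the groups in each genotype, and their log2 fold changes (0.31 to 0.44) were smaller than their standard errors (0.44 to 0.81).

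**Figure D2:**
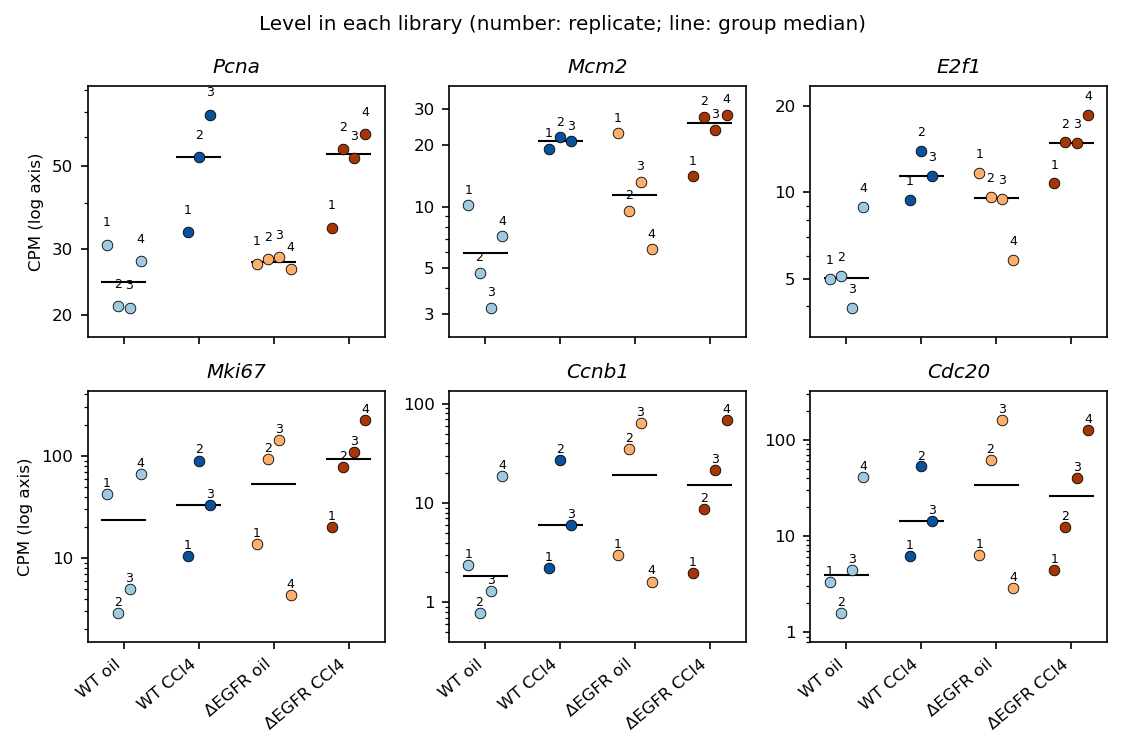
Level of 3 S phase genes (upper row) and 3 mitosis genes (lower row) in CPM on a log axis, with 1 point per library, its replicate number and the group median as a line. Pcna, Mcm2 and E2f1 in WT CCl4 lie above all WT oil points, while Mki67, Ccnb1 and Cdc20 span more than 10 times in WT oil, ΔEGFR oil and ΔEGFR CCl4.

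The number of S phase genes called in WT depended on single libraries. It was 0 without WT oil 2, WT oil 3 or WT CCl4 3, 1 without WT CCl4 2 and 7 without WT oil 1, and it was also 0 when only the 2 groups compared were fitted. In ΔEGFR it was 0 without any 1 of the 8 libraries, while the median log2 fold change stayed between 0.86 and 1.15 in WT and between 0.67 and 1.03 in ΔEGFR whichever library was left out. The macrophage markers moved with the same contrast: their sum was 108 to 2379 CPM in WT oil against 2254 to 5944 CPM in WT CCl4, and 45.7 to 1327 CPM in ΔEGFR oil against 2509 to 5433 CPM in ΔEGFR CCl4, with all 15 markers above 0 in every library. Stellate cell markers, 12 in number, summed to 38.9 to 187 CPM in WT oil against 239 to 654 CPM in WT CCl4, and 44.6 to 262 CPM in ΔEGFR oil against 286 to 896 CPM in ΔEGFR CCl4. The 8 cholangiocyte markers summed to 32.9 to 215 CPM in WT oil against 293 to 754 CPM in WT CCl4, and 20.2 to 280 CPM in ΔEGFR oil against 223 to 559 CPM in ΔEGFR CCl4. Hepatocyte markers reached lower sums with CCl4, with overlapping ranges, from 81070 to 147400 CPM in WT oil against 49560 to 106000 CPM in WT CCl4, and from 84730 to 167400 CPM in ΔEGFR oil against 50430 to 120600 CPM in ΔEGFR CCl4. The macrophage sums overlapped narrowly between mineral oil and CCl4 in WT, and the cholangiocyte sums overlapped in ΔEGFR. Sums of endothelial, neutrophil, T and NK cell, B and plasma cell and erythroid markers overlapped between mineral oil and CCl4 in both genotypes. The neutrophil sum was 2.89 to 2003 CPM in WT oil and 96.4 to 409 CPM in WT CCl4. The part of these cells in the S phase result was not tested.

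The mitosis genes told libraries apart rather than groups. The median log2 CPM of the 22 genes was 1.74, -0.33, 0.40 and 3.98 in WT oil 1 to 4, 1.14, 4.48 and 2.48 in WT CCl4 1 to 3, 2.0, 4.6, 5.65 and 0.40 in ΔEGFR oil 1 to 4 and 1.87, 3.54, 4.32 and 5.79 in ΔEGFR CCl4 1 to 4. The libraries with the highest medians were thus ΔEGFR CCl4 4, given CCl4, and ΔEGFR oil 3, given mineral oil. These were the top libraries for 21 of the 22 genes, Cdc25b being the exception, and WT oil 2 was the lowest library for all but Bub1. In each of WT CCl4, ΔEGFR oil and ΔEGFR CCl4 1 library was highest and 1 lowest for all 22 genes: WT CCl4 2 and 1, ΔEGFR oil 3 and 4, and ΔEGFR CCl4 4 and 1.

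Mki67 encodes the Ki-67 protein that coats mitotic chromosomes and is the usual marker of cycling cells. It measured 42.3, 2.92, 4.93 and 65.8 CPM in WT oil 1 to 4, 10.5, 90.1 and 33.0 CPM in WT CCl4 1 to 3, 13.7, 92.4, 143 and 4.30 CPM in ΔEGFR oil 1 to 4 and 20.1, 77.2, 108 and 225 CPM in ΔEGFR CCl4 1 to 4. All groups overlapped, and ΔEGFR oil 2 and 3 were above each WT CCl4 library. The log2 fold change with CCl4 was 0.62 ± 1.22 in WT (edgeR adjusted p = 0.772) and 0.76 ± 1.14 in ΔEGFR (edgeR adjusted p = 0.710).

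Top2a, the topoisomerase that untangles chromosomes before they part, measured 19.0, 1.28, 2.24 and 27.0 CPM in WT oil 1 to 4, 7.51, 42.6 and 15.9 CPM in WT CCl4 1 to 3, 7.09, 30.5, 62.3 and 2.54 CPM in ΔEGFR oil 1 to 4 and 12.1, 45.9, 43.0 and 87.0 CPM in ΔEGFR CCl4 1 to 4. The libraries kept the order seen for Mki67 in 3 of the groups, with ΔEGFR CCl4 2 and 3 nearly equal in the fourth. The log2 fold changes were 0.83 ± 1.12 in WT (edgeR adjusted p = 0.659) and 0.87 ± 1.05 in ΔEGFR (edgeR adjusted p = 0.635).

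Ccnb1, the cyclin B that carries cells into mitosis, measured 2.38, 0.785, 1.3 and 18.7 CPM in WT oil 1 to 4, 2.23, 27.2 and 5.94 CPM in WT CCl4 1 to 3, 3.0, 35.3, 63.5 and 1.62 CPM in ΔEGFR oil 1 to 4 and 1.98, 8.67, 21.4 and 68.6 CPM in ΔEGFR CCl4 1 to 4. The ΔEGFR group with mineral oil spanned as wide a range as the one with CCl4. The log2 fold change was 1.02 ± 1.43 in WT (edgeR adjusted p = 0.672) and -0.04 ± 1.32 in ΔEGFR (edgeR adjusted p = 0.989). Cdk1, the kinase that cyclin B activates, measured 2.69, 1.08, 1.46 and 15.5 CPM in WT oil 1 to 4, 3.65, 23.7 and 6.93 CPM in WT CCl4 1 to 3, 5.85, 24.6, 48.6 and 1.72 CPM in ΔEGFR oil 1 to 4 and 6.55, 15.4, 21.4 and 59.2 CPM in ΔEGFR CCl4 1 to 4. Its log2 fold change was 1.14 ± 1.14 in WT (edgeR adjusted p = 0.545) and 0.34 ± 1.06 in ΔEGFR (edgeR adjusted p = 0.868).

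Foxm1, a transcription factor of mitosis genes, measured 5.31, 0.785, 1.08 and 14.5 CPM in WT oil 1 to 4, 1.89, 19.4 and 5.22 CPM in WT CCl4 1 to 3, 4.20, 20.5, 39.4 and 1.14 CPM in ΔEGFR oil 1 to 4 and 4.07, 13.7, 18.9 and 43.1 CPM in ΔEGFR CCl4 1 to 4. Its highest and lowest libraries were those of Ccnb1 in every group. The log2 fold change was 0.70 ± 1.21 in WT (edgeR adjusted p = 0.737) and 0.29 ± 1.12 in ΔEGFR (edgeR adjusted p = 0.897). Ccna2, the cyclin A of S phase and early mitosis, ran from 0.942 CPM in WT oil 2 to 72.2 CPM in ΔEGFR CCl4 4, and Ccnb2, a second cyclin B, from 0.718 to 43.5 CPM between the same libraries.

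The kinases and checkpoint proteins of the spindle shared this pattern. Plk1, the polo kinase that matures the spindle poles, measured 0.673 and 0.918 CPM in WT oil 2 and 3, 17.1 CPM in WT oil 4 and 62.3 and 62.5 CPM in ΔEGFR oil 3 and ΔEGFR CCl4 4. The Aurora kinases, Aurka of the spindle poles and Aurkb of the centromeres, reached 53.9 and 25.2 CPM in ΔEGFR CCl4 4 and were at most 1.88 and 0.499 CPM in WT oil 2 and 3. Birc5, survivin, which sits in a complex with Aurora B, ran from 0.830 CPM in WT oil 2 to 39.4 CPM in ΔEGFR CCl4 4. Bub1 and Bub1b, the checkpoint proteins that hold anaphase back until every chromosome is attached, ran from 0.160 to 12.6 CPM and from 0.606 to 26.3 CPM. The lowest Bub1 value, in WT oil 3, rested on 8 counts, so counting error adds to the spread at that end.

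Cdc20 and Ube2c, which switch on the anaphase-promoting complex and feed it ubiquitin so that cyclin B is destroyed, were among the members that peaked in a mineral oil library. Cdc20 measured 3.36, 1.59, 4.43 and 41.0 CPM in WT oil 1 to 4, 6.14, 52.6 and 14.4 CPM in WT CCl4 1 to 3, 6.30, 60.9, 160 and 2.90 CPM in ΔEGFR oil 1 to 4 and 4.48, 12.4, 40.1 and 126 CPM in ΔEGFR CCl4 1 to 4. ΔEGFR oil 3 was 101 times WT oil 2. Ube2c ran from 0.718 CPM in WT oil 2 to 61.6 CPM in ΔEGFR oil 3. Cdkn3, a phosphatase that acts on cyclin-dependent kinases, measured 0.202 to 0.245 CPM in WT oil 1 to 3 and 4.26 CPM in WT oil 4.

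Cdc25b, a phosphatase that activates Cdk1, was the member that broke the order. It measured 12.03, 0.426, 0.559 and 2.54 CPM in WT oil 1 to 4, and WT oil 1 was its highest library of all 15. The same library was 4.73 times WT oil 4 for Cdc25b, while the other 21 mitosis genes were lower in WT oil 1 than in WT oil 4, with a median ratio of 0.253 over all 22. The lowest ratio was 0.0576 for Cdkn3, Ccnb1 and Cdc20 stood at 0.127 and 0.0820, and Mki67 and Top2a at 0.643 and 0.703. The same library held the highest neutrophil and T and NK cell markers, and their part in these ratios was not tested.

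The motors and other spindle proteins completed the list. Kif11, the motor that pushes the spindle poles apart, ran from 1.05 CPM in WT oil 2 to 35.6 CPM in ΔEGFR CCl4 4. Kif20a, a motor of cell cleavage, measured 2.27 to 3.33 CPM in WT oil 1 to 3, 34.8 CPM in WT oil 4 and up to 101 CPM in ΔEGFR oil 3. Tpx2, which activates Aurora A on the spindle, Hmmr, a spindle assembly protein, and Cenpf, a kinetochore protein, reached 65.9, 62.7 and 51.4 CPM against 0.762, 0.606 and 0.695 CPM in WT oil 2. Across the 22 genes the ratio of the highest to the lowest library of a group had a median of 21.95 in WT oil, 8.79 in WT CCl4, 32.5 in ΔEGFR oil and 14.0 in ΔEGFR CCl4. For the S phase genes these medians were 3.40, 1.78, 2.10 and 2.22.

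None of the 22 mitosis genes was called with CCl4 in either genotype by edgeR, and none had an unadjusted p under 0.05. DESeq2, limma on log2(TPM + 1) and every other setting tried also called 0 of the 22. By edgeR 5.31% of all genes rose and 7.2% fell in WT, and 1.77% rose and 2.38% fell in ΔEGFR. In ΔEGFR, 0 called of 22 is near these shares. At an unadjusted p under 0.05, 12.7% of all genes were higher in WT and 11.6% in ΔEGFR. All 22 log2 fold changes were above 0 in WT, from 0.18 for Cdc25b to 1.23 for Cdkn3 with a median of 0.95, and 17 were above 0 in ΔEGFR, with a median of 0.19. Their standard errors were 1.08 to 1.43 in WT and 1.01 to 1.33 in ΔEGFR, about as large as the changes or larger. The median was -0.30 in WT without WT CCl4 2 and 2.36 without WT oil 4, and in ΔEGFR -0.66 without ΔEGFR CCl4 4 and 1.23 without ΔEGFR oil 3. A median near that of the S phase genes in WT thus came from values that single libraries reversed, whereas the S phase median did not change sign without any library.

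**Figure D3:**
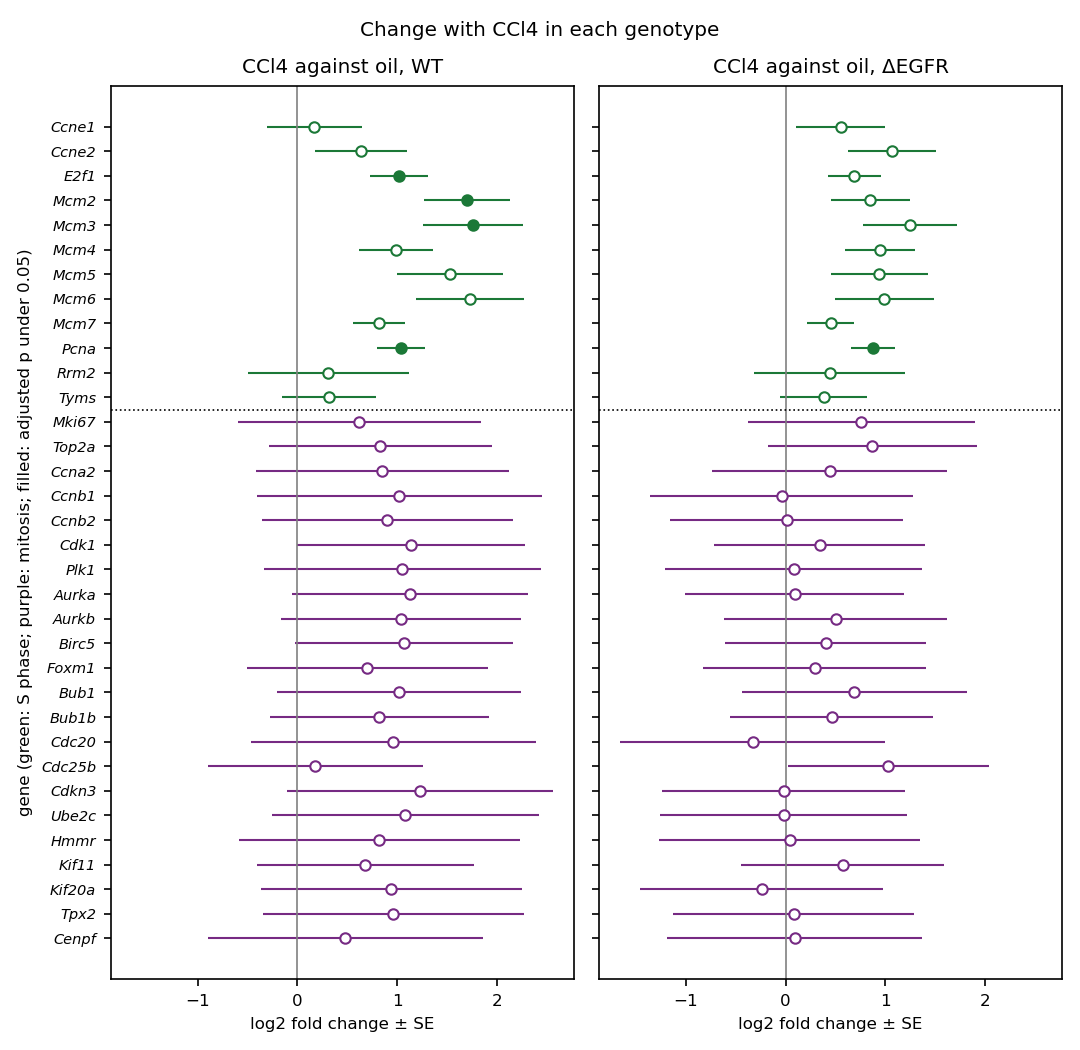
Log2 fold change with CCl4 ± SE for each gene in WT (left) and ΔEGFR (right), from the fit to all 15 libraries. Filled points passed an adjusted p of 0.05: E2f1, Mcm2, Mcm3 and Pcna in WT and Pcna in ΔEGFR, while every mitosis gene has an error bar of more than 1 log2 unit to each side.

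The spread between libraries of 1 group separated the stages. The SD of log2 CPM within groups, pooled over the 4 groups, was 0.331 for Pcna, 0.366 for Mcm7 and 0.402 for E2f1, the lowest of the 34, and 1.14 for Rrm2, the highest of the S phase genes. It was 1.60 for Birc5 to 2.19 for Ccnb1 among the mitosis genes, with no overlap between these 2 lists. The median over all genes tested was 0.454, and the mitosis genes lay between percentiles 93.2 and 98.7 of all genes, the S phase genes between 36.0 and 82.2. Among S phase genes Rrm2 therefore came nearest to the mitosis genes in its spread.

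**Figure D4:**
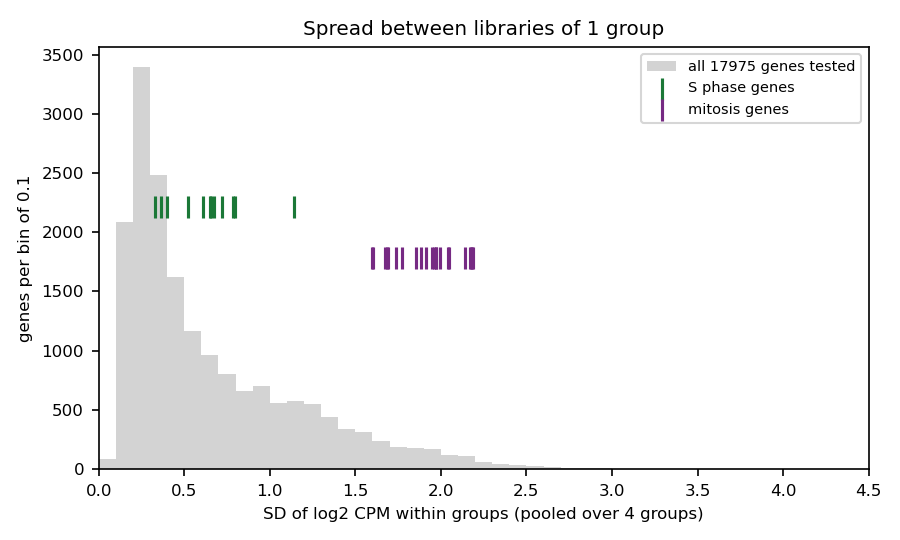
Histogram of the within-group SD of log2 CPM over the 17975 genes tested (grey), with the 12 S phase genes (green ticks) and 22 mitosis genes (purple ticks). Green ticks run from 0.331 to 1.14 and purple ticks from 1.60 to 2.19, in the right tail of the histogram.

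The 2 stages could part within a library. The mitosis median minus the S phase median, both in log2 CPM, was above 0 in 5 libraries: WT oil 4 (0.75), WT CCl4 2 (0.11), ΔEGFR oil 2 (1.05), ΔEGFR oil 3 (1.91) and ΔEGFR CCl4 4 (1.0). It was below 0 in the other 10, down to -2.78 in WT CCl4 1. ΔEGFR oil 3 and ΔEGFR oil 1 had nearly the same S phase median (3.74 and 3.78), yet all 22 mitosis genes were higher in ΔEGFR oil 3, by 3.66 to 25.4 times, while 9 of the 12 S phase genes were lower. WT CCl4 1 showed the reverse, with an S phase median of 3.92, above all 4 WT oil libraries, and a mitosis median of 1.14. A mineral oil library of either genotype was above every WT CCl4 library in 4 of the 12 S phase and all 22 mitosis genes. ΔEGFR oil 3 alone met this in 2 S phase and all 22 mitosis genes. The mineral oil libraries outnumbered those of WT CCl4, which favours such a count, and the share over all genes was not computed.

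**Figure D5:**
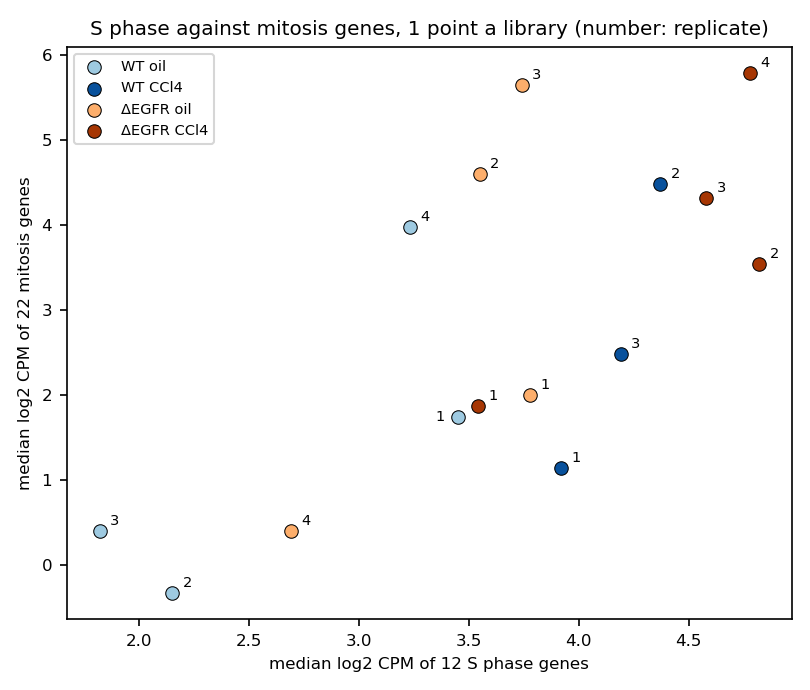
Median log2 CPM of the 12 S phase genes (horizontal axis) and of the 22 mitosis genes (vertical axis), with 1 point per library coloured by group and numbered by replicate. CCl4 points run from 3.54 to 4.82 on the S phase axis and mineral oil points from 1.82 to 3.78, and each group spreads over more than 3 log2 units on the mitosis axis.

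Macrophage markers and the mitosis genes moved together in some groups and not in others. In WT CCl4 1 to 3 the 15 macrophage markers summed to 2254, 5944 and 5723 CPM beside mitosis medians of 1.14, 4.48 and 2.48, so both were highest in WT CCl4 2, whose macrophage sum was also the highest of the 15 libraries. In ΔEGFR oil 1 to 4 the sums were 998, 543, 1327 and 45.7 CPM beside medians of 2.0, 4.6, 5.65 and 0.40, and ΔEGFR oil 3 was highest and ΔEGFR oil 4 lowest in both. In WT oil 1 to 4 the sums were 2379, 373, 108 and 1199 CPM beside medians of 1.74, -0.33, 0.40 and 3.98, with the highest macrophage sum in WT oil 1 and the highest median in WT oil 4. In ΔEGFR CCl4 1 to 4 they were 3643, 5433, 3778 and 2509 CPM beside medians of 1.87, 3.54, 4.32 and 5.79, where the library with the highest median had the lowest sum. The hepatocyte marker sums of ΔEGFR oil 3 and ΔEGFR CCl4 4 were 92240 and 120600 CPM. In WT CCl4 the neutrophil, B and plasma cell, erythroid and cholangiocyte sums were also highest in WT CCl4 2. T and NK cell sums were highest in WT CCl4 3, and stellate and endothelial sums in WT CCl4 1. In ΔEGFR oil the T and NK cell and B and plasma cell sums were also highest in ΔEGFR oil 3. Neutrophil, endothelial and cholangiocyte sums were highest in ΔEGFR oil 1, stellate sums in ΔEGFR oil 2 and erythroid sums in ΔEGFR oil 4. The part of other cells in the mitosis values was not tested.

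No difference between ΔEGFR and WT hepatocytes passed the test in the 34 genes. In mineral oil edgeR called 0 of the 34, as it did over all genes (0.0%), although 4 S phase genes (E2f1, Mcm2, Mcm6 and Mcm7) and 1197 genes in all (6.66%) had an unadjusted p under 0.05. DESeq2 also called 0 genes. The log2 fold change, ΔEGFR over WT, was above 0 for all 12 S phase genes, with a median of 0.66, and for 21 of the 22 mitosis genes, with a median of 1.77. Mcm2 was 1.03 ± 0.40 higher, Mki67 1.13 ± 1.15 and Ccnb1 2.16 ± 1.39 (edgeR adjusted p = 0.713, 0.794 and 0.717). The mitosis median was 0.88 and 3.19 at the ends of the range when 1 library was left out. For no member were all ΔEGFR oil libraries above all WT oil libraries, which held for 1.44% of all genes.

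In CCl4 edgeR also called 0 of the 34 between genotypes, and 0.0% of all genes, with 411 genes (2.29%) and no member at an unadjusted p under 0.05, and DESeq2 called 2 genes, neither a member. The median log2 fold change was 0.38 for the S phase genes and 1.11 for the mitosis genes. Mcm2 was 0.18 ± 0.43, Mki67 1.27 ± 1.27 and Ccnb1 1.09 ± 1.47 higher in ΔEGFR (edgeR adjusted p = 1 for each). Ccne1 alone had every ΔEGFR CCl4 library (4.19 to 7.41 CPM) above every WT CCl4 library (2.23 to 3.75 CPM), which held for 2.68% of all genes. All 4 ΔEGFR oil libraries were in the deeper range against 1 of 4 WT oil libraries, so genotype and depth cannot be fully told apart in mineral oil, and with depth as a covariate edgeR still called 0 members.

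No difference between the genotypes in the response to CCl4 passed the interaction test. EdgeR called 0 members and 0.0% of all genes, with no member among the 568 genes (3.16%) at an unadjusted p under 0.05, and DESeq2 called 2 genes, neither a member. The interaction was -0.85 ± 0.58 for Mcm2, 0.15 ± 1.68 for Mki67 and -1.06 ± 1.95 for Ccnb1 on the log2 scale (edgeR adjusted p = 1 for each). Its median was -0.24 over the S phase genes and -0.73 over the mitosis genes. That 4 S phase genes were called in WT and 1 in ΔEGFR is thus not a tested difference.

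Further genes of DNA replication, 48 in number and outside the 34, rose in WT at an adjusted p about as often as all genes. At an unadjusted p they were higher there more often than all genes. With CCl4 in WT 2 of the 48 rose and 1 fell by edgeR, beside 5.31% and 7.2% of all genes. At an unadjusted p under 0.05, 16 of the 48 were higher, beside 12.7% of all genes. In 13 of the 48 every WT CCl4 library was above every WT oil library, beside 12.1% of all genes. Of the 48 log2 fold changes 42 were above 0, with a median of 0.59. Cdt1, which loads the Mcm ring on DNA, measured 7.79, 5.74, 3.93 and 8.54 CPM in WT oil 1 to 4 and 15.3, 20.03 and 19.7 CPM in WT CCl4 1 to 3. It rose 2.82-fold (log2 fold change 1.5 ± 0.31, edgeR adjusted p = 0.0115), and the call held without each of the 7 WT libraries (adjusted p up to 0.0475). Rfc3, a subunit of the loader of the Pcna ring, rose by 0.72 ± 0.21 (edgeR adjusted p = 0.0394), a call lost without 6 of the 7 libraries. Fen1, the nuclease that trims Okazaki fragments, had the next lowest adjusted p, with no overlap between 3.81 to 9.86 CPM in WT oil and 13.8 to 15.2 CPM in WT CCl4, and missed the threshold (1.26 ± 0.42, edgeR adjusted p = 0.0640).

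Mcm10, which helps start replication forks, went against the Mcm2 to Mcm7 genes. It measured 107, 93.3, 245 and 48.6 CPM in WT oil 1 to 4 and 24.6, 21.8 and 23.9 CPM in WT CCl4 1 to 3, and fell 5.26-fold (log2 fold change -2.40 ± 0.63, edgeR adjusted p = 0.0275). The call was lost without WT oil 3 or any 1 of the WT CCl4 libraries. In ΔEGFR it measured 55.9, 47.2, 14.5 and 126 CPM with mineral oil and 19.99, 18.3, 27.5 and 25.6 CPM with CCl4. Its highest mineral oil libraries, WT oil 3 and ΔEGFR oil 4, were among those lowest in the mitosis genes. Whether reads were counted by strand is not given in the sources used here, so reads of a gene overlapping Mcm10 could not be told apart.

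Cdc6, which loads the Mcm ring with Cdt1, measured 0.0998 to 1.58 CPM in WT oil and 2.73 to 3.52 CPM in WT CCl4, with no overlap, and missed the threshold (2.05 ± 0.79, edgeR adjusted p = 0.105). Gmnn, geminin, which blocks Cdt1, ranged from 2.59 to 5.02 CPM in WT oil and from 4.77 to 6.01 CPM in WT CCl4 (0.43 ± 0.24, edgeR adjusted p = 0.268). In ΔEGFR none of the 48 was called, with a median of 0.40, where 1.77% of all genes rose and 2.38% fell. At an unadjusted p under 0.05, 12 of the 48 were higher, beside 11.6% of all genes. In 3 of the 48 every ΔEGFR CCl4 library was above every ΔEGFR oil library, beside 12.3% of all genes. Cdt1 had the lowest adjusted p of the 48, at 1.07 ± 0.29 (edgeR adjusted p = 0.0570). Of 60 further mitosis genes none was called in either genotype by edgeR, with medians of 0.78 in WT and 0.18 in ΔEGFR. Beside this, 5.31% of all genes rose and 7.2% fell in WT, and 1.77% rose and 2.38% fell in ΔEGFR. At an unadjusted p under 0.05, 1 of the 60 was higher in each genotype, beside 12.7% of all genes in WT and 11.6% in ΔEGFR.

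Regulators upstream of these genes were less uniform. Of 19 transcription regulators of the cycle, 2 fell and none rose in WT, where 7.2% of all genes fell and 5.31% rose. None was called in ΔEGFR, where 2.38% of all genes fell and 1.77% rose. Rbl2, the retinoblastoma relative p130 that represses cycle genes in resting cells, measured 56.6, 59.5, 55.2 and 48.6 CPM in WT oil 1 to 4 and 23.0, 32.5 and 30.04 CPM in WT CCl4 1 to 3. It fell 1.93-fold (log2 fold change -0.95 ± 0.17, edgeR adjusted p = 0.00660), and the call held without each WT library (adjusted p up to 0.0295). Without scaling factors, where the median gene of that comparison was 0.40, and on log2(TPM + 1) it was not called. Tfdp2, a partner of E2F factors, fell by 0.86 ± 0.20 on the log2 scale (edgeR adjusted p = 0.0185), a call lost without WT oil 2 or any 1 of the WT CCl4 libraries. Rbbp4, a histone-binding subunit of the DREAM complex, and E2f4, a repressive E2F, came next at -0.52 ± 0.19 and 0.38 ± 0.15 and missed the threshold (edgeR adjusted p = 0.0901 and 0.118).

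Mybl2, the B-MYB of the complexes that switch on mitosis genes, measured 0.259 to 1.97 CPM in WT oil and 1.08 to 2.11 CPM in WT CCl4, with WT oil 1 the highest mineral oil library. In ΔEGFR it was 0.248 to 1.19 CPM with mineral oil and 1.38 to 2.81 CPM with CCl4, with no overlap and a log2 fold change of 2.0 ± 0.66 that missed the threshold (edgeR adjusted p = 0.0955). Myc measured 167 CPM in WT oil 1 and 11.1 to 37.3 CPM in the other 3 WT oil libraries, against 22.1 to 53.8 CPM in WT CCl4 (-0.65 ± 0.79, edgeR adjusted p = 0.623). Of 7 inhibitors of cyclin-dependent kinases 1 rose in WT, beside 5.31% of all genes. It was Cdkn2a, at 0 to 0.141 CPM with mineral oil and 0.185 to 0.881 CPM with CCl4 (2.81 ± 0.80, edgeR adjusted p = 0.0366). That call, at very low levels, was lost without 5 of the 7 WT libraries. Cdkn2b and Cdkn1c, the inhibitors p15 and p57, were at 1.94 ± 0.66 and 1.08 ± 0.51 in WT and missed the threshold (edgeR adjusted p = 0.0697 and 0.183). None of the 7 was called in ΔEGFR. Cdkn1a, the inhibitor p21, measured 8.98, 3.12, 8.70 and 55.9 CPM in WT oil 1 to 4 and 101, 114 and 109 CPM in WT CCl4 1 to 3, with no overlap, but its log2 fold change of 2.49 ± 0.97 missed the threshold (edgeR adjusted p = 0.109). In ΔEGFR oil 3, the mineral oil library richest in mitosis genes, Cdkn1a reached 113 CPM, and in the other 3 it was 3.98 to 30.9 CPM.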

How the data were processed

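Total RNA of primary hepatocytes gave 15 libraries, made with the KAPA Stranded mRNA-Seq kit, as the labels' protocols record. Per the submitters' processing notes, STAR 2.7.8a and RSEM 1.3.0 were used with GRCm39. Which annotation release was used, and whether counting used strand, is not given in the sources used here. The authors deposited RSEM expected counts and TPM (transcript abundance scaled for length and library total) for 56953 Ensembl genes per library, of which 52029 (91.4%) matched a name in a table of another build, used for names only.

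The deposited expected counts, rounded to whole numbers, went into edgeR 4.0.16 (R 4.3.3): filterByExpr by group (minimum count 10, minimum total 15) kept 17975 genes and all 34 members, TMM factors scaled the libraries, and 1 mean per group was estimated from the 15 libraries together by quasi-likelihood with robust settings (two-sided tests, Benjamini-Hochberg adjusted p under 0.05). The biological coefficient of variation was 50.9%. CPM values are TMM-scaled, and library medians are of log2 CPM with a prior count of 2. The fit was also run on simulated data, whose outcome is not given here and on which no result rests. No 2 libraries held identical values, which was checked. Alternatives were RLE and upper-quartile factors, no scaling, DESeq2 1.42.0, other low-count filters, limma 3.58.1 on log2(TPM + 1), fitting only the groups compared, depth (the deeper against the shallower libraries) as a covariate, and leaving out each library.

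The members and lists were chosen with earlier results of these data known. Full values were given for members called in any comparison and for Mki67, Top2a, Cdk1, Ccnb1, Pcna, Mcm2, Mcm5, Ccne1, Foxm1 and E2f1. Of each other list, the 4 genes with the lowest adjusted p in a comparison where any was called were named, with Cdkn1a, Myc, Mybl2, Cdc6, Cdt1 and Gmnn. Rrm2 and Cdc20 in full, Cdc25b in WT oil and single-library values of other members were given after their values were seen. Of the other lists' names, Lin54 and Ahsp matched no gene.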

Additional observations from a re-analysis of the deposited data

Results flagged for a closer look

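Of 108 groups of 4 libraries examined over the 34 genes and the library medians, 2 held a library whose gap to the nearest other library exceeded Dixon's 95% critical share of the range of the group. Chance gives about 1 such group in 20. Both were in WT oil and had WT oil 4 as the high library. Cdkn3 stood at a log2 CPM of 2.1 there, with a gap of 0.939 of the range, and Kif20a at 5.12, with a gap of 0.859.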

How the results depend on the processing

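Counts of calls were fragile, and the S phase medians with CCl4 were less so. With a library left out, the S phase median between genotypes ran from 0.5 to 0.86 in mineral oil and from 0.15 to 0.6 in CCl4. For the interaction it ran from -0.5 to -0.09. The S phase genes called with CCl4 in WT (4) were 8 without scaling factors, 7 with DESeq2, 8 with limma on log2(TPM + 1), 0 with only the groups compared, and 0 to 7 with a library left out. In ΔEGFR (1) they were 2 without scaling, 0 with no low-count filter, 7 with limma and 0 with any library left out. Mitosis genes called were 0 under every setting. Genes called over the whole table in WT (2250) were 3622 with DESeq2, 1457 with no filter, 533 with only the groups compared and 575 to 5111 with a library left out. In ΔEGFR (746) they were 1180 without scaling, 2410 with DESeq2, 470 with no filter, 2271 with limma, 1286 with only the groups compared, 1643 with depth as a covariate and 75 to 972 with a library left out. DESeq2 called 2 genes between genotypes in CCl4 and 2 for the interaction, where limma called 1. The cause of these differences was not tested.

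Without scaling factors the median gene shifted to 0.40 in WT and 0.44 in ΔEGFR, and with limma on log2(TPM + 1) to 0.28 and 0.31, so S phase medians of 1.41 and 1.32, and of 1.28 and 1.22, are to be read relative to these. With a library left out, the log2 fold change with CCl4 took both signs in 3 of the 12 S phase genes and 16 of the 22 mitosis genes in WT, and in 1 and 17 in ΔEGFR. Among the genes given with a test it ran in WT from -0.39 to 2.94 for Ccnb1, -0.09 to 0.44 for Ccne1, -0.51 to 1.85 for Foxm1, -0.32 to 1.39 for Mki67, -0.48 to 1.91 for Cdc25b, -0.34 to 0.93 for Rrm2, -0.11 to 0.64 for Tyms and -1.0 to 0.67 for Myc, which was 0.45 with limma. In ΔEGFR it ran from -1.26 to 0.92 for Ccnb1, -0.46 to 1.26 for Cdk1, -0.39 to 1.21 for Foxm1 and -0.04 to 0.61 for Tyms. Ccnb1 ran from -0.13 to 2.59 between genotypes in CCl4 and from -2.97 to 0.37 for the interaction, and the Mki67 interaction from -0.62 to 1.11. Ccnb1 in ΔEGFR (-0.04) was 0.00 with RLE factors and with DESeq2, 0.03 with upper-quartile factors, 0.11 without scaling and 0.56 with limma, and the Mki67 interaction (0.15) was -0.01 without scaling. None of these genes was called. No paired analysis was possible because the labels give no replicate number or animal that links libraries of different groups. The lowest counts of members were 8 to 19, for Bub1 in WT oil 2, WT oil 3 and ΔEGFR oil 4, Cdkn3 in WT oil 2 and 3, Aurkb and Cdc25b in WT oil 2 and Ccne2 in WT oil 3.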
